A study of Mus musculus with 28 samples.

Results

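The mitochondrial ribosomal protein genes were the 78 genes whose symbols begin with Mrpl or Mrps followed by a digit, pseudogenes left out. They were chosen by name alone, from 35928 gene symbols in the liver and pancreas profiles called set 2 here and from 24845 gene names in the earlier liver and lung table called set 1. Of the 78, 49 carry the large subunit name Mrpl and 29 the small subunit name Mrps. Set 2 held 16 samples and set 1 held 12, all bulk mouse tissue RNA-seq. The mice carried human APOBEC3B (A3B), a DNA cytosine deaminase fused to turboGFP, behind a tetracycline operator at the ColA1 locus, and were bred to CAGs-rtTA3, a driver active in most tissues. A3B animals carried both transgenes, whereas controls were littermates with 1 of them. By the labels every animal ate chow with 625 ppm doxycycline. The study elsewhere describes the pooled control animals of the liver and pancreas work as given no doxycycline, so whether the set 2 groups shared the diet is unclear. In set 2 all mice were labelled as taken at 10 days, giving 6 A3B and 2 control livers and 6 A3B and 2 control pancreases, with 7 mice giving both organs. In set 1 there were 3 A3B and 3 control samples per tissue. The A3B livers 23 and 28 were taken at 14 days, A3B liver 70 and all A3B lungs at 10 days, and all controls at 15 days per the labels, so days on diet and A3B cannot be told apart there. The study's own table of mice gives other exposures for these controls than the labels do. Mice 70 and 91 gave both liver and lung. Grouping followed the sample titles. The genotype field disagreed with the title for control liver 11 of set 1 and for control pancreases 45 and 168, all given there as carrying both transgenes, and for A3B pancreases 44 and 137, given as A3B without the driver.

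Mitochondria have a ribosome of their own, which translates the few messenger RNAs of the mitochondrial genome, all of them for subunits of the respiratory chain and ATP synthase. Its ribosomal RNAs come from the mitochondrial genome, but each of its proteins is encoded in the nucleus, made by cytosolic ribosomes and imported. Part of the proteins descend from bacterial ribosomal proteins (45 members here) and the others were acquired during mitochondrial evolution (33 members). Inherited loss of single members impairs oxidative phosphorylation, with tissues of high energy demand such as heart, brain and liver often affected.

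The members lie on 17 chromosomes and share promoter features that the choice by name did not use. RefSeq promoters (GRCm38.p6, from 250 bases before to 50 after the start) were matched for 69 of the 78 members. The ETS core CCGGAAG, read on both strands, was in a promoter of 26 of the 69 (37.7%), against 9.93% of all 27025 genes counted the same way. The NRF1 core TGCGCA was in 21 (30.4%, against 8.79%), and the YY1 core AAGATGGC in 12 (17.4%, against 3.19%). At least 1 of these 3 motifs was found for 44 members (63.8%, against 19.3%), whereas the CCAAT box was about as frequent among members (39.1%) as over all genes (41.1%), as was the E box CACGTG (7.25%, against 8.09%). The cyclic AMP response element core TGACGT was in 11.6% of members and 8.37% of all genes. ETS proteins of the GABP type, NRF1 and YY1 are known regulators of nuclear genes for mitochondrial proteins. A match of letters is a description and not a bound site. The windows of 4 members to which the results below turn are shown from 130 bases before to 25 after the start, 5′ to 3′ on the strand of the gene, with the ETS, NRF1 and YY1 letters in capitals. They are Mrpl45 (chr11:97315586-97315740, plus strand), Mrpl58 (chr11:115403622-115403776, plus strand), Mrpl53 (chr6:83108978-83109132, plus strand) and Mrpl49 (chr19:6057731-6057885, minus strand).
Mrpl45: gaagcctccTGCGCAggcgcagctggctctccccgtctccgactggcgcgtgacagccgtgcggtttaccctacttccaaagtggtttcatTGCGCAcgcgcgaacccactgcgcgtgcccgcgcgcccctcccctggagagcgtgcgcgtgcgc
Mrpl58: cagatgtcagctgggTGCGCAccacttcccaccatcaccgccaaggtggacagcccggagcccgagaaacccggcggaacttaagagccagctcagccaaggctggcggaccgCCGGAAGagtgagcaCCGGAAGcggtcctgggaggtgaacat
Mrpl53: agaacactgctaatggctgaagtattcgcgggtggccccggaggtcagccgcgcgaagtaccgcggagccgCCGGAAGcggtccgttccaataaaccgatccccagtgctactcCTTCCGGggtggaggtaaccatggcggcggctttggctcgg
Mrpl49: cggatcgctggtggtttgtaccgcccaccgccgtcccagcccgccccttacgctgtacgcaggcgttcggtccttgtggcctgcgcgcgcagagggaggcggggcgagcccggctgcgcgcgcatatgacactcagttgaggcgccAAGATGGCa
The Mrpl45 window held the NRF1 core at 2 places and no ETS core, Mrpl58 held 2 ETS cores and 1 NRF1 core, Mrpl53 held the ETS core once on each strand, and Mrpl49 held the YY1 letters just after its start.

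Set 2 libraries held 65161064 to 118976013 estimated counts, and the members took 0.175 to 0.336% of the counts in livers, 0.183 to 0.278% in A3B pancreases, but only 0.0964 and 0.117% in the control pancreases. The control pancreases stood apart, because 10 genes held 59.7 and 62.4% of their counts, against 12.1 to 20.6% in A3B pancreases. Acinar markers, the digestive enzymes and regulators of exocrine cells, summed to 373895 and 379129 TPM (abundance per transcript length as a share of the library) in controls and 63828 to 168957 TPM in A3B pancreases, and 10 of 11 were called lower. Macrophage markers (6 of 6 called higher), fibroblast markers (5 of 6) and ductal markers (4 of 6) moved the other way, with macrophage sums of 14.7 and 60.2 TPM in controls and 988 to 2625 TPM with A3B. Of the other lists in pancreas, 2 of 6 endocrine markers were called lower while their summed level was 3413 and 3485 TPM in controls and 3650 to 13267 TPM with A3B, 1 of 4 endothelial markers was higher, and 1 of 5 neutrophil markers was higher and 1 lower. Hepatocyte markers summed to 92394 and 140674 TPM in control and 32181 to 77346 TPM in A3B livers of set 2, and to 6396 to 7789 and 2321 to 5070 TPM in set 1, with none of the 6 called in either set. Lung epithelial markers summed to 17796 to 18906 TPM in control and 16502 to 17921 TPM in A3B lungs, with 1 of 5 called lower. B and plasma cell markers ran from 65.6 to 307 TPM (median 173) in control and 39.0 to 106 TPM (median 56.0) in A3B lungs, and T cell markers from 43.3 to 107 and 39.8 to 59.7 TPM, with none of either called. In lung 1 endothelial marker of 4 was also called lower, and 1 macrophage marker of 6, 1 neutrophil marker of 5 and 1 fibroblast marker of 6 higher. In bulk tissue, fewer cells of a type and less RNA per cell cannot be told apart, and the part of these shifts in the results below was not tested.

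In control tissue the members spanned a wide range of levels per length. In the set 2 livers the mean of the 2 controls ran from 5.96 to 140.5 TPM, with a median of 34.3 TPM over the 78 genes. Mrpl52, Mrpl12 and Mrpl17 were the most abundant there and Mrpl23, Mrpl19 and Mrps30 the least. In control pancreas the range was 1.48 to 113 TPM with a median of 12.8 TPM, led by Mrps21, Mrpl53 and Mrpl33, with Mrpl35, Mrps27 and Mrpl45 at the bottom. Set 1 was made by another pipeline, so its levels are not set against those of set 2. There the control livers ranged from 3.04 to 816 TPM (median 61.7 TPM) and the control lungs from 1.11 to 752 TPM (median 46.6 TPM), and Mrpl52, Mrpl33 and Mrpl42 were the 3 most abundant members in both. Mrps27 was among the 3 least abundant in both set 1 tissues and in control pancreas, and in lung it fell under the filter of a mean of 1 TPM, leaving 77 members to be tested. For 11 members the most abundant transcript in set 2 was one that GENCODE M21 types as retained_intron or processed_transcript, such as the retained_intron models that held 84.9% of Mrps24 and 74.5% of Mrps25, and for 5 others, among them Mrps14 (85.0%), it was a target of nonsense-mediated decay, so gene sums for these are not levels of productive mRNA alone.

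Lung gave the most uniform picture. All 77 tested members were lower with A3B, 61 passed limma's test on log2(TPM + 1) with Benjamini-Hochberg adjusted p under 0.05, and none was called higher, whereas 20.8% of all 13651 genes tested were called lower and 16.1% higher. Their median log2 fold change was -0.59, beside -0.06 over all genes. After the correction for transcript length given further on, 23 were called lower and 1 higher (12.8% and 14.9% of genes), with a median of -0.21. The summed member level was 6111, 5447 and 7111 TPM in the control lungs (mice 87, 88 and 91) and 3808, 3902 and 4095 TPM in the A3B lungs (mice 69, 70 and 74), and single samples of set 1 are given in these orders of mice throughout. The groups did not overlap in the sum, nor for 68 single members, all lower with A3B, where 30.6% of all genes were separated downward.

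**Figure D1:**
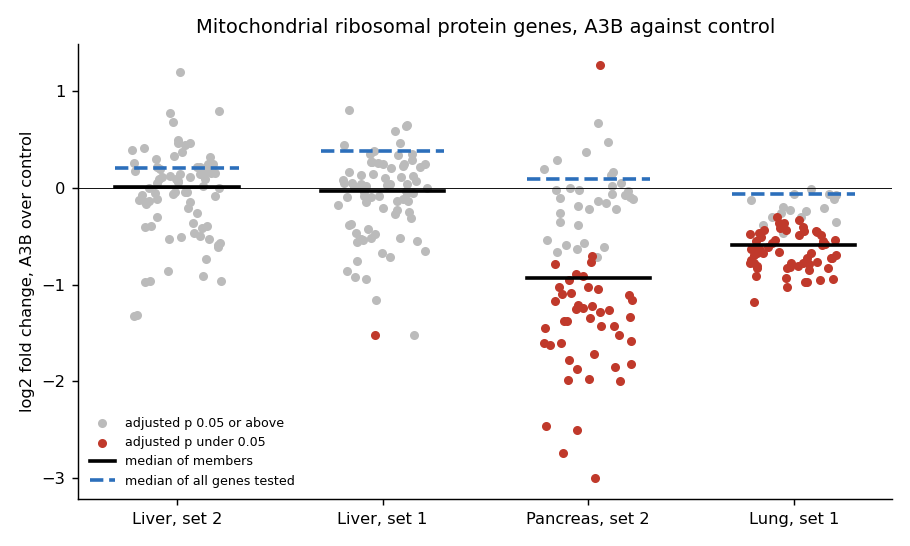
Each point is 1 mitochondrial ribosomal protein gene, placed by its log2 fold change (A3B over control) in each tissue and set, with red points at adjusted p under 0.05 (edgeR for set 2, limma for set 1), black bars at the members' median and dashed blue bars at the median of all genes tested. The 61 red lung members are all below 0, where the median of all 77 tested is -0.59 (-0.21 after a correction for transcript length). The pancreas members reach lower with 44 below and Mrpl45 alone above (TMM scaling, whereas scaling by total counts puts their median at 1.37). The liver members spread around 0.01 and -0.04.

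Mrps25, a small subunit protein specific to mitochondria (chr6:92169525-92184033, minus strand, GRCm38), had the largest fall among the 5 members with the smallest p. It stood at 157, 151 and 171 TPM in control lungs and at 58.2, 75.9 and 76.7 TPM with A3B (log2 fold change -1.18, SE 0.13, limma adjusted p 0.00312). The highest A3B lung was far below the lowest control. Mrpl58, the peptidyl-tRNA hydrolase built into the large subunit that frees stalled chains, went from 91.0, 89.4 and 103 TPM to 52.1, 52.4 and 56.2 TPM (-0.81, SE 0.09, limma adjusted p 0.00336). Mrpl49, another mitochondria-specific large subunit protein, went from 44.0, 45.8 and 47.4 TPM to 24.3, 22.9 and 28.9 TPM (-0.83, SE 0.11, limma adjusted p 0.00432). Replicates of each group lay close together for both genes, and the gap between groups was wider than either spread. Mrpl42 fell from 290, 259 and 313 TPM to 146, 165 and 173 TPM (-0.83, SE 0.11, limma adjusted p 0.00475). Mrps14, the homologue of a bacterial small subunit protein near the decoding site, fell from 36.1, 32.01 and 42.3 TPM to 16.5, 18.9 and 19.9 TPM (-0.96, SE 0.13, limma adjusted p 0.00475). In contrast, Mrpl3, a core protein of the large subunit and a disease gene, was at 46.7, 46.7 and 49.2 TPM in controls and 49.99, 47.4 and 44.2 TPM with A3B, and its groups overlapped (-0.01, adjusted p 0.939).

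Of the 19 members picked for a known role, 13 were called lower in lung, beside 61 of 77 members in all and 20.8% of all genes. After the correction for transcript length given further on, 5 of the 19 were called lower (Mrpl10, Mrpl45, Mrpl58, Mrps16 and Mrps30) and Mrpl3 higher, and the values that follow are uncorrected. The stalk proteins that recruit translation factors, Mrpl12 and Mrpl10, fell by 0.58 and 0.49 on the log2 scale (limma adjusted p 0.0122 and 0.00824). Mrps12, at the decoding centre, fell by 0.59 (0.00676). At the exit tunnel and the membrane, Mrpl23 fell by 0.73 (0.0126), Mrpl24 by 0.40 (0.034) and Mrpl45, which tethers the ribosome to the inner membrane, by 0.36 (0.0467). The 3 paralogs of bacterial S18, which take different places in the ribosome, differed among themselves, since Mrps18a (-0.67, adjusted p 0.00922) and Mrps18c (-0.64, 0.0214) fell and Mrps18b did not pass (-0.12, 0.435). That difference between paralogs was not tested. Mrps30, named as small but located in the large subunit, fell by 0.34 (0.0255), and Mrps36, which is part of the 2-oxoglutarate dehydrogenase complex, by 0.82 (0.0165). Of the disease and lifespan genes, Mrps16 (-0.79, limma adjusted p 0.00724) and Mrpl44 (-0.45, 0.0105) fell, whereas Mrps5 (-0.21, 0.116), Mrps22 (-0.12, 0.361), Mrps34 (-0.30, 0.0921) and Mrps2 (-0.07, 0.596) did not pass. By subunit, 40 of 49 Mrpl genes (median -0.57) and 21 of 28 Mrps genes (median -0.63) were lower, and by origin 36 of 45 with a bacterial homologue and 25 of 32 specific to mitochondria. Without A3B lung 69 the count called lower dropped from 61 to 39.

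In pancreas the direction depended on the scaling, and the summed member level was higher, not lower, as a share of the library. It was 1539 and 1913 TPM in controls 45 and 168, and 2768 at the lowest, 3671 at the median and 4025 TPM at the highest of the 6 A3B pancreases, so the groups did not overlap. In TPM, 59 members stood higher in every A3B sample than in either control and none stood lower, as did 70.8% (higher) and 1.07% (lower) of all 19142 genes. TMM scaling sets a library by its broad body of genes and gives the control pancreases factors of 0.21 and 0.443 against 1.30 to 1.79 for A3B, so that the median gene changed by 0.09. On that scale edgeR's quasi-likelihood test called 44 members lower and 1 higher (14.9% and 17% of all genes), with a median of -0.93, whereas scaling by total counts called 61 higher and 0 lower (70.4% and 1.1% of all genes) with a median of 1.37 beside 2.29 over all genes. On both scales the members' median was below that of all genes. In TMM-scaled CPM (counts over scaled library size), 44 members were lower and 3 higher in every A3B pancreas than in both controls, beside 18.9% and 25.1% of all genes. Fewer members were called lower by TMM without control 45, but that fit leaves 1 control, so how far this library decides the count was not tested. Without the A3B pancreases 44 and 137 the TMM count was 40 lower and 1 higher.

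**Figure D2:**
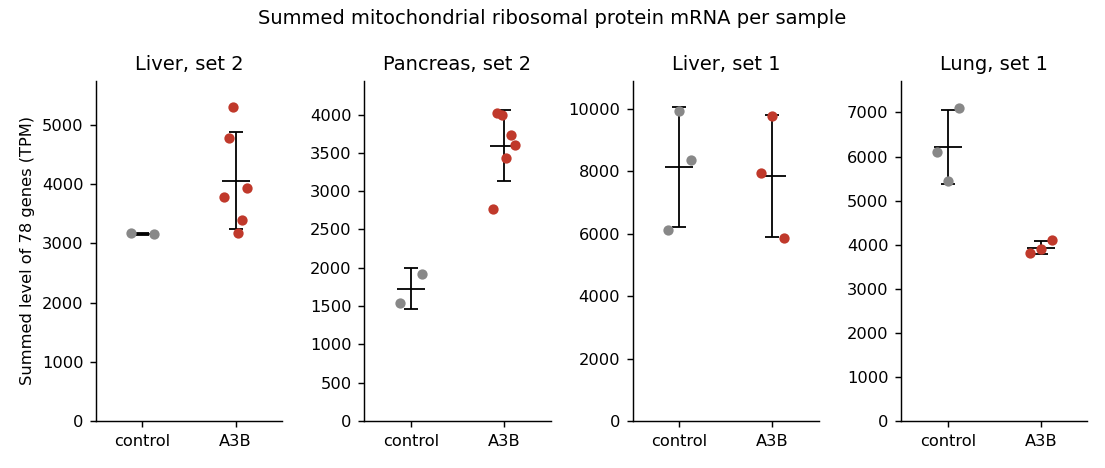
Each point is 1 sample, placed by the summed level of the 78 genes in TPM, with a panel for each tissue and set and lines for the mean and SD. The lung groups do not overlap (5447 to 7111 TPM in controls, 3808 to 4095 TPM with A3B), the pancreas groups do not overlap in the other direction (1539 and 1913 TPM against 2768 to 4025 TPM, a direction that TMM scaling turns), and the livers overlap.

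Mrpl45 (chr11:97315716-97329920, plus strand, GRCm38) was the exception among the called members, higher with TMM and with total-count scaling, and 1 of the 3 least abundant members in control pancreas with Mrps27 and Mrpl35. It stood at 15.2 and 9.93 TMM-scaled CPM in controls 45 and 168, and at 25.6 (lowest), 30.5 (median) and 33.9 (highest) with A3B. In TPM the controls were at 1.44 and 2.21 and the A3B pancreases at 17.3 to 25.4. The groups were apart on both scales (log2 fold change 1.28, SE 0.23, edgeR adjusted p 0.00268 with TMM, and 3.57 with total-count scaling). Mrps2 and Mrps31 were the other two members that were higher in every A3B sample by TMM-scaled CPM, and neither was called.

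The 5 members with the smallest p among those called lower by edgeR were Mrpl28, Mrpl50, Mrpl53, Mrps24 and Mrpl12. Mrpl28, which has a bacterial homologue, stood at 209 and 99.8 TMM-scaled CPM in the controls and at 20.4, 28.3 and 30.8 (lowest, median, highest) with A3B (-2.50, SE 0.25, adjusted p 0.0002, edgeR). Its TPM overlapped between groups, at 49.6 and 55.2 in controls and 33.3 to 58.3 with A3B. Mrpl50, specific to mitochondria, went from 111 and 78.3 to 18.8, 26.8 and 30.1 TMM-scaled CPM (-1.87, SE 0.22, edgeR adjusted p 0.000309), and turned to 0.42 with total-count scaling. Mrpl53 went from 254 and 116 to 15.3, 27.1 and 41.3 (-2.75, SE 0.34, edgeR adjusted p 0.000416), with 102 and 107 TPM in controls and 42.7 to 117 TPM with A3B. Mrps24, the bacterial S3 homologue at the mRNA entry, went from 222 and 64.1 to 12.1, 19.2 and 21.9 (-3.01, SE 0.37, edgeR adjusted p 0.00045). The 2 controls differed several-fold for Mrps24, and each was still above every A3B pancreas. Mrpl12, of the stalk, went from 113 and 86.7 to 28.2, 34.6 and 45.4 (-1.52, SE 0.21, edgeR adjusted p 0.000611), yet its TPM rose from 21.1 and 37.8 to between 39.6 and 57.1, and total-count scaling gave 0.73. With total-count scaling Mrpl28 (-0.11), Mrpl53 (-0.35) and Mrps24 (-0.50) kept their direction but did not pass.

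Across the other roles, the TMM-scaled fits called Mrps12 (-1.78, edgeR adjusted p 0.00127), Mrps16 (-1.63, 0.000862), Mrpl24 (-1.42, 0.00206), Mrpl23 (-1.26, 0.0298), Mrps34 (-1.17, 0.0061), Mrpl58 (-1.04, 0.0142) and Mrps36 (-1.03, 0.0098) lower. As in lung, Mrps18a (-0.71, edgeR adjusted p 0.0432) and Mrps18c (-0.77, 0.0437) were called and Mrps18b was not (0.16, 0.582). The stalk base protein Mrpl10 (-0.38, 0.199), Mrpl3 (-0.21, 0.501), Mrps30 (-0.02, 0.953), Mrps5 (-0.10, 0.786), Mrps22 (-0.26, 0.485), Mrpl44 (-0.22, 0.527) and Mrps2 (0.68, 0.0669) did not pass. By subunit, 29 of 49 Mrpl genes (median -1.03) and 15 of 29 Mrps genes (median -0.71) were called lower. By origin the counts were 26 of 45 with a bacterial homologue (median -1.09) and 18 of 33 specific to mitochondria (median -0.79). These counts, beside the 14.9% of all genes called lower, are those of TMM. DESeq2, which scales in its own way, called 44 of the 78 members lower and 1 higher (median -0.97), beside 13.1% and 14.0% of all genes. With total-count scaling none was lower, and 40 of 49 Mrpl genes (median 1.34), 21 of 29 Mrps genes (median 1.57), 35 of 45 with a bacterial homologue and 26 of 33 specific to mitochondria were higher, beside 70.4% of all genes.

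In the livers few members were called. In set 2 edgeR called 0 of 78 (1.25% of 17376 genes were called higher and 2.41% lower), with a median log2 fold change of 0.01 beside 0.21 over all genes. At an unadjusted p under 0.05 there were 9 members, and DESeq2 called 1 higher and 1 lower. The spread between these livers was wide, with a biological coefficient of variation of 0.57. The summed level was 3173 and 3153 TPM in controls and 3168, 3858 and 5312 TPM (lowest, median, highest) with A3B. In set 1 limma called 1 of 78 lower and 0 higher (1.86% of 11507 genes lower and 6.07% higher), with a median of -0.04 beside 0.39 over all genes. Summed levels were 6130, 9948 and 8376 TPM in controls 11, 91 and 92 and 7961, 9765 and 5853 TPM in A3B livers 23, 28 and 70, and the groups overlapped.

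The 1 member called in the set 1 livers was Mrpl49 (chr19:6053622-6057785, minus strand, GRCm38). It was at 50.8, 68.1 and 64.6 TPM in controls and 21.5, 12.9 and 30.3 TPM with A3B (-1.53, SE 0.37, limma adjusted p 0.0494), and the groups did not overlap. The call was lost when any of 5 of the 6 livers was left out, the exception being A3B liver 70, with fold changes of -1.65 to -1.22 in those 5 fits. In the set 2 livers Mrpl49 was at 23.0 TPM in each control. With A3B it was at 7.997 (lowest), 11.0 (median) and 21.1 TPM (highest) there (-1.32, SE 0.45, edgeR adjusted p 0.123). It was thus lower in each of 9 A3B livers than in the controls of its own set, and it was 1 of the 5 members with the smallest p in lung. Mrpl47, a large subunit protein that was among the 3 least abundant in set 1 controls, had the highest fold change in both liver sets. It was at 7.36 and 8.91 TPM in the set 2 controls and at 24.7, 31.0 and 39.0 TPM (lowest, median, highest) with A3B (1.20, SE 0.33, edgeR adjusted p 0.0722), and at 2.40, 3.597 and 3.24 TPM in set 1 controls and 8.02, 5.62 and 4.95 TPM with A3B (0.81, limma adjusted p 0.116). The groups were apart in both sets, and neither adjusted p passed, but Mrpl47 did pass in set 2 with DESeq2 (1.12), with total-count scaling (1.65) and with limma on TPM (1.85). Mrpl9, which came between Mrpl47 and Mrpl49 by p in the set 2 livers, was at 39.9 and 34.6 TPM in controls and 14.6 to 33.6 TPM with A3B (-0.98, SE 0.32, edgeR adjusted p 0.115).

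The 2 liver sets came from separate mice, and their fold changes over the 78 members were compared as a description across genes, which are not independent. Pearson's r was 0.78 and Spearman's rho 0.70, and 58 members (74.4%) had the same sign. Over all 10886 genes tested in both, r was 0.75, rho 0.76 and the same sign was found for 77.3%, so that the members tracked between sets about as closely as other genes did. At the low end of both sets were Mrps6 (-1.32 and -1.53), Mrpl49 (-1.32 and -1.53), Mrpl34 (-0.96 and -1.16) and Mrps12 (-0.91 and -0.94), of which Mrpl49 passed in set 1 alone.

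**Figure D3:**
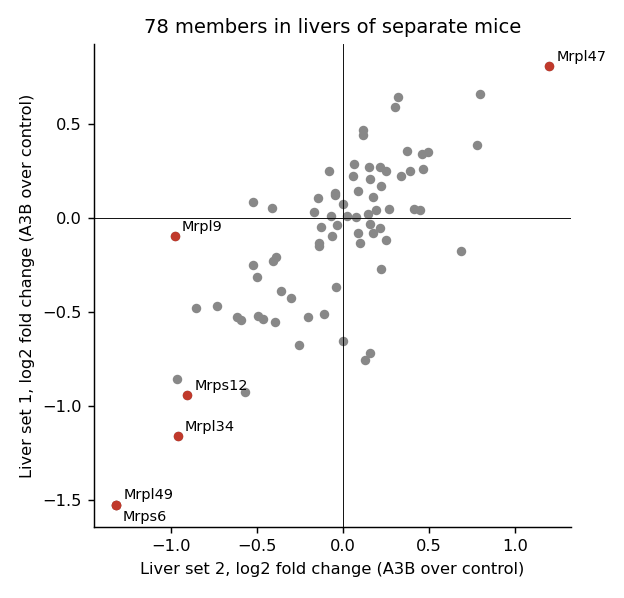
Each point is 1 of the 78 genes, placed by its log2 fold change (A3B over control) in the set 2 livers (edgeR, x axis) and in the set 1 livers (limma, y axis). Mrpl47 is at the upper end (1.20 and 0.81) and Mrps6 and Mrpl49, nearly on the same spot, at the lower end (-1.32 and -1.53), and Pearson's r over the points is 0.78.

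Whether the A3B effect differed between tissues was tested with interaction terms. Between pancreas and liver of set 2, edgeR called 12 members more negative in pancreas and 1 more positive (5.02% and 6.87% of 19927 genes), with a median difference of -0.60 beside 0.03 over all genes. The 1 more positive was Mrpl45 (1.29, adjusted p 0.0129), a call that was lost without control liver 45, without control pancreas 168 and with a correction for transcript length. The 5 with the smallest p among the others were Mrpl24 (-1.67, adjusted p 0.0111), Mrps24 (-2.58, 0.0113), Mrpl50 (-2.16, 0.0145), Mrpl30 (-1.65, 0.018) and Mrpl15 (-1.33, 0.0236). With the mouse as a block, over the 7 mice with both organs, 8 members were more negative and 1 more positive (2.51% and 5.45% of all genes). Of the 6 just named Mrpl30 lost its call (-1.58). With the block and a correction for transcript length together, 1 was more negative and 0 more positive (2.06% and 3.17% of all genes). Of the 6 named only Mrpl50 (-2.25) then kept its call. The calls depend on the scaling as in pancreas alone. With total-count scaling 34 members were more positive in pancreas and 0 more negative, where 39.4% and 1.12% of all genes were. The members' median was then 1.07 beside 1.59 over all genes. DESeq2, which scales in its own way, called 24 more negative and 1 more positive (7.13% and 6.68% of all genes). The 12 calls were lost without control liver 45, control liver 168 or control pancreas 45, but each such fit leaves 1 control in that organ. Between lung and liver of set 1, 3 members were more negative in lung and 0 more positive (8.81% and 1.94% of 13477 genes), with a median difference of -0.55 beside -0.39 over all genes. These were Mrpl47 (-1.17, limma adjusted p 0.0192), Mrps36 (-1.21) and Mrpl18 (-0.82). The mouse was also set as a block through limma's duplicateCorrelation, since 2 mice gave both organs. Then 4 of 78 members were more negative and 0 more positive, these 3 among them. Over all genes that fit called 15.98% more negative and 3.37% more positive, with a median of -0.38 beside -0.40 for the members. None was called more negative with quantile normalization, with a correction for transcript length, or without control lung 91, A3B lung 69 or A3B lung 70. The length correction called 1 member more positive, beside 5.19% of all genes. The share of members called in this test was below the share of all genes, so that the many calls in lung beside the 1 in liver do not show a difference between the 2 tissues for most members.

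Transcript length moved with the members' fold changes in pancreas and lung. Members are short, with a median transcript length of 958 bases (417 to 3326), averaged over a gene's transcripts by abundance, and across the members Spearman's rho between fold change and length was 0.55 in pancreas and 0.53 in lung, but -0.13 and 0.08 in the livers of set 2 and set 1. Over all genes it was 0.17 in pancreas, 0.44 in lung, 0.26 in the set 1 livers and -0.058 in the set 2 livers. In lung 37 of 42 members under 1000 bases were called lower (median -0.68) and 24 of 35 longer ones (median -0.44), beside 49.0% of all genes under 1000 bases (median -0.45) and 17.3% of longer ones (median -0.01). In pancreas 31 of 42 short members (median -1.23, TMM) and 13 of 36 longer ones (median -0.24) were lower, beside 28.4% of all short genes (median -0.66) and 12.4% of longer ones (median 0.17). When each sample was corrected for a trend with length, 23 members were called lower in lung (12.8% of 12933 genes) and 1 was called higher (14.9%), with a median of -0.21 beside 0.00. The 1 higher was Mrpl3 (0.30), named here after its value was seen. Mrps25 (-1.02, limma adjusted p 0.00449), Mrpl49 (-0.65, 0.00861) and Mrpl58 (-0.31, 0.0293) were among the 23. In pancreas 36 were called lower and 1 higher after the correction (16.9% and 13.5% of genes), with a median of -0.63 beside -0.06. How far length itself accounts for the calls was not tested.

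**Figure D4:**
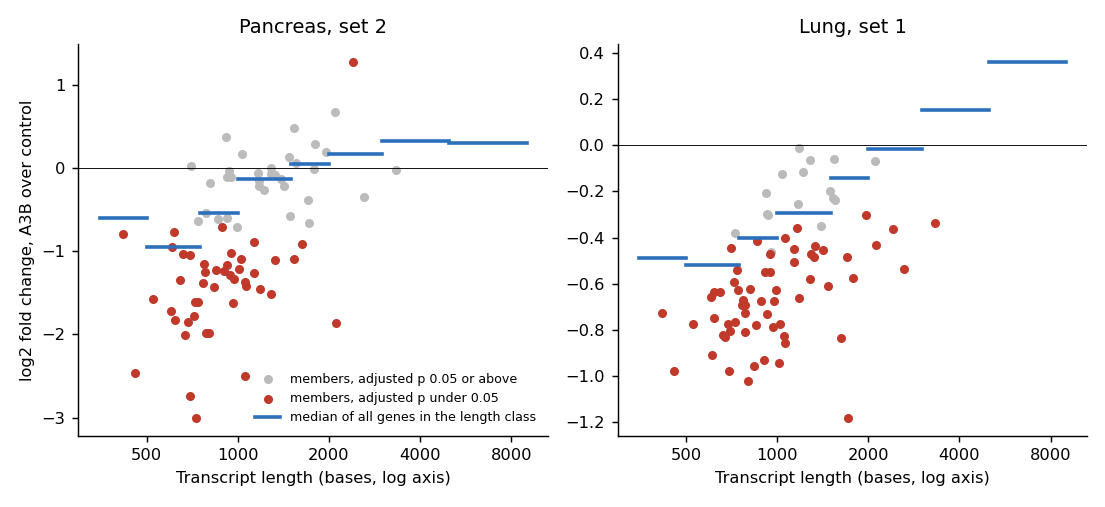
Each point is 1 gene, placed by transcript length (bases, log axis) and log2 fold change (A3B over control) in pancreas (TMM scaling, where total-count scaling turns most members positive) and lung, with red points at adjusted p under 0.05 and blue bars at the median of all genes in a length class. Short members lie lowest, with medians of -1.23 in pancreas and -0.68 in lung under 1000 bases.

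Genes that act with the mitochondrial ribosome are given by the same counts, to be read against the 14.9% of all genes called lower and 17% higher in pancreas (TMM) and the 20.8% lower in lung. In pancreas total-count scaling called none of these 6 lists' genes lower. It called 4 of 5, 23 of 25, 14 of 15, 14 of 17, 8 of 10 and 9 of 10 higher in the order below, beside 70.4% of all genes. Of 5 ribosome proteins with other names, 4 were lower in pancreas by TMM (Chchd1 -2.74 and Aurkaip1 -1.65 among them) and 4 in lung, and none was called in the livers. Of 25 assembly factors, 7 were lower and 1 higher in pancreas and 11 of 23 lower in lung. In the livers the RNA helicase Ddx28 was higher in both sets (2.10 in set 2 and 1.80 in set 1) and Mterf3, of the mitochondrial transcription termination factor family, in set 1 (1.27). Translation factors were called lower for 6 of 15 in pancreas and 6 of 13 in lung, with the membrane insertase Oxa1l higher in pancreas (0.73) and the recycling factor Gfm2 lower in the set 2 livers (-1.13). Of the mitochondrial aminoacyl-tRNA synthetases, 5 of 17 were lower in pancreas (Cars2 at -2.07) and 6 of 16 in lung with 1 higher. In the livers none of 17 passed in set 2, where 13 were negative (median -0.63) and 10 had an unadjusted edgeR p under 0.05. Over all genes 3987 of 17376 had such a p there. In set 1 Mars2 was higher (1.68), whereas 11 of 16 synthetases were negative (median -0.36). The medians over all genes were 0.21 in set 2 and 0.39 in set 1. For transcription and nucleoid genes, 3 of 10 in pancreas and 3 of 8 in lung were lower. Of the regulators of mitochondrial biogenesis, 4 were higher and 1 lower of 9 in lung (16.1% of all genes higher, 20.8% lower), 1 higher and 1 lower of 10 in pancreas by TMM, 1 higher of 10 in the set 2 livers (1.25% of all genes) and 2 higher of 10 in the set 1 livers (6.07%). Ppargc1a, the coactivator PGC-1 alpha, was higher in the set 2 livers (2.85, edgeR adjusted p 0.0373) and in lung (1.02), where Pprc1, Yy1 and Myc were also higher and Gabpb1, a subunit of the ETS factor GABP, was lower. In the set 1 livers Myc (3.38) and Pprc1 (1.62) were higher. In pancreas the orphan receptor Esrra was lower (-0.86) and Tfe3 higher (1.07). Members with and without an ETS core were called lower in 21 of 25 and 33 of 43 cases in lung and in 17 of 26 and 22 of 43 in pancreas by TMM. With and without the NRF1 core the counts were 17 of 21 and 37 of 47 in lung and 12 of 21 and 27 of 48 in pancreas. For the YY1 core they were 8 of 11 and 46 of 57 in lung and 8 of 12 and 31 of 57 in pancreas. None of these gaps was tested.

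The most like groups are the proteins of the cytosolic ribosome and the nuclear-encoded respiratory chain subunits. In lung 7 of 79 cytosolic ribosomal protein genes were lower (median -0.42) and 51 of 76 respiratory chain genes (median -0.57), beside 61 of 77 members. In pancreas, by TMM, the counts were 71 of 86 (median -1.79), 62 of 81 (median -1.60) and 44 of 78 members, and the 13 respiratory chain genes of the mitochondrial genome were all lower (median -3.30). With total-count scaling, 28 cytosolic genes were higher and 3 lower (median 0.60), 38 respiratory chain genes higher and 6 lower (median 0.72), and 6 of the 13 mitochondrial genome genes lower (median -0.78), beside 61 members higher and 0 lower. In the livers no cytosolic gene was called (median 0.64 in set 2 and 0.25 in set 1), and of the respiratory chain 1 of 81 was lower in set 2 and none of 77 in set 1. These groups can be set against each other within a sample, where scaling cancels. The summed members came to 10.5 and 9.30% of the summed cytosolic ribosomal protein TPM in the set 2 control livers and to 3.85, 7.08 and 8.60% (lowest, median, highest) with A3B. In set 1 livers the share was 10.7, 9.57 and 10.1% in controls and 7.86, 7.42 and 8.74% with A3B, and in lung 6.10, 6.95 and 6.09% in controls and 5.24, 5.40 and 5.20% with A3B. The share was thus lower in every A3B sample of these 3 comparisons. In pancreas it was higher in every A3B sample, at 0.908 and 1.34% in controls and 1.63, 2.22 and 2.75% (lowest, median, highest) with A3B. Against the respiratory chain the share in pancreas was 12.1 and 14.8% in controls and 24.2, 28.2 and 29.6% with A3B, and in the set 2 livers 16.7 and 15.4% against 17.3, 18.1 and 21.8%. In lung it was lower with A3B (38.2, 38.7 and 41.8% against 34.6, 29.5 and 36.1%), and in the set 1 livers the groups overlapped (23.1, 29.0 and 27.2% against 30.8, 50.02 and 27.8%).

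**Figure D5:**
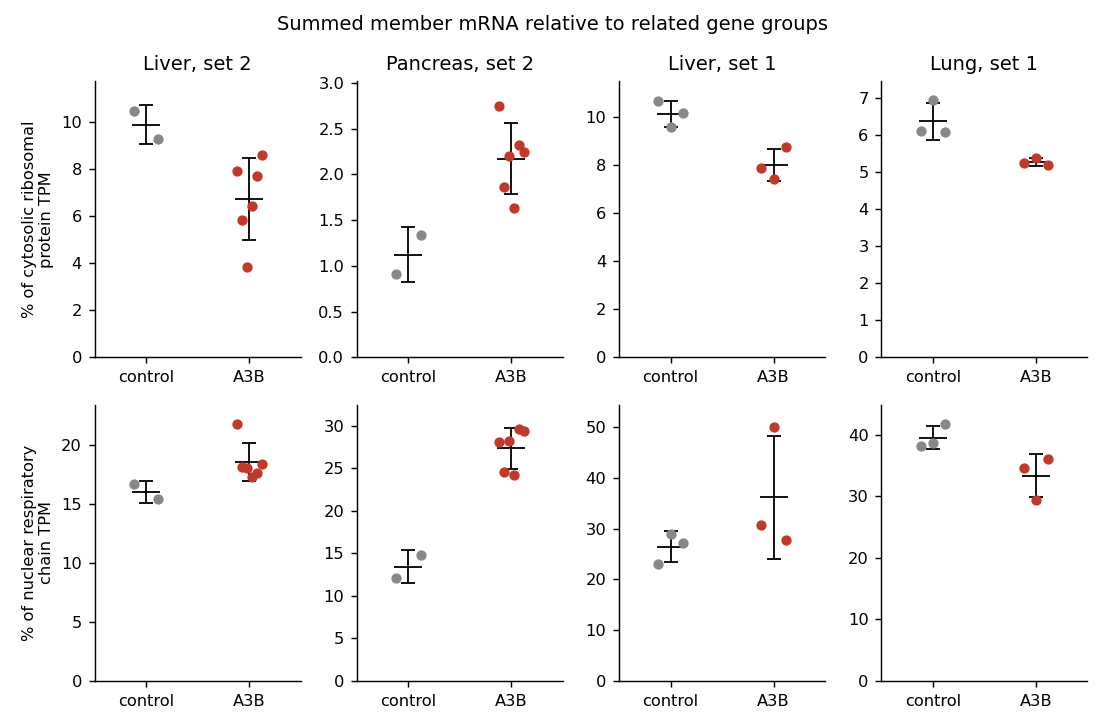
Each point is 1 sample, placed by the summed level of the 78 genes as a percentage of summed cytosolic ribosomal protein TPM (upper panels) or of summed nuclear respiratory chain TPM (lower panels), with lines for the mean and SD. The upper share is lower in every A3B sample than in the controls in both liver sets and lung and higher in pancreas (0.908 and 1.34% against 1.63 to 2.75%).

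Many members sit close to other genes. On the GENCODE M21 annotation 18 members share a promoter region with a coding gene that starts within 1000 bases in the other direction. In pancreas 11 of these 18 members were called lower by TMM (median -0.97), beside 3 of their 18 partners lower and 1 higher (median 0.34), where 14.9% of all genes were lower and 17% higher. In lung 10 of 17 members (median -0.49) and 3 of 16 partners were lower, with 4 partners higher (median -0.16), where 20.8% of all genes were lower and 16.1% higher. The partners' counts called lower were near the share of all genes. Mrpl49 starts 59 bases from Fau, which encodes a cytosolic small subunit protein. The pair took opposite signs in the livers (-1.32 and 1.51 in set 2, with edgeR adjusted p of 0.123 and 0.0902, and -1.53 and 0.59 in set 1), whereas Fau was at -1.40 (adjusted p 0.00926, TMM) in pancreas and -0.21 in lung. Mrps12 starts 172 bases from Sars2, the mitochondrial seryl-tRNA synthetase, and this pair shared its sign in the set 2 livers (-0.91 and -1.02), the set 1 livers (-0.94 and -1.05) and lung (-0.59 and -0.44, limma adjusted p 0.00676 and 0.0345). A further limit is that 36 members overlap a gene on the other strand and 13 a gene on the same strand, where reads could be split.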

How the data were processed

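RNA-seq of 28 bulk tissue samples was used. For set 2 (16 samples) the authors quantified transcripts with kallisto, and the deposited files give an estimated count and a TPM value per transcript. For set 1 (12 samples) the authors deposited 1 table of TPM per gene, which the study's methods derive from read counts of duplicate-marked alignments, and whose depth is unknown. The submitters' processing notes name GRCm38 and mm10. The human transgene was not analysed here. Estimated counts were summed per gene symbol through GENCODE M21 (116728 of 119414 transcripts matched, 97.75%, with 0.225 to 1.46% of counts unmatched) and rounded.

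Set 2 was tested within tissue by edgeR 4.0.16 (quasi-likelihood, TMM, filterByExpr) in R 4.3.3, and set 1 by limma 3.58.1 on log2(TPM + 1) over genes whose mean level reached 1 TPM, a scale that understates the change of low genes. P-values were Benjamini-Hochberg adjusted over all genes tested, with a threshold of 0.05. Interaction terms compared tissues. The interaction over set 1, the transcript length correction (lowess, span 0.3), the fit of the length correction with the mouse block, and the mouse block of set 1 (limma's duplicateCorrelation, consensus correlation 0.543) were chosen after seeing the data. Alternatives were DESeq2 1.42.0, total-count scaling, no filter, limma on set 2 TPM, pseudocount 0.1, quantile normalization, each sample left out, and the mouse as a block. Mice pair liver with pancreas by the numbers in the titles, as 1 animal, and deviations of the 2 organs correlated at 0.21, -0.00, 0.25, 0.28 and 0.09 for A3B mice 44, 49, 125, 137 and 153. Tests were run on simulated data. There edgeR recovered 27% of changed genes in the liver and pancreas designs at a dispersion of 0.25, and 100% and 99.5% at 0.05. Limma recovered 37% in the set 1 liver and 95.5% in the lung design. With a length trend added and 200 genes changed, edgeR called 6947 genes (liver) and 7559 (pancreas), and 211 and 210 with the length correction. Where controls number 2, p-values rest on little replication.

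The members and the gene lists were chosen with earlier results of these data known. Named are, per comparison, up to 5 members with the smallest p in each direction among those called (3 where none was), the 3 most and 3 least abundant in controls, and a list of members with known roles. For the other gene lists, up to 3 genes by smallest p are named. The biogenesis regulators beyond those, Mrps2 and Mrps31 by their separation, Mrps6 and Mrpl34 in the livers, and the 2 neighbour pairs were chosen after their values were seen.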

Additional observations from a re-analysis of the deposited data

Results flagged for a closer look

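In 10 of 68 tests over the 6 A3B samples of an organ, 1 sample stood apart from the rest. Chance gives about 5 percent for a single test, but the tests share the same samples, so the count cannot be judged against that rate. The value is the gap to the nearest sample as a share of the range. In the A3B livers of set 2 these were the members' share of respiratory chain TPM (0.759, mouse 44 high at 21.8%), Mrpl50 (0.872, mouse 49 high at 79.9 TPM) and Mrpl53 (0.656, mouse 49), and for mouse 48 Mrpl23 (0.627), Mrps18b (0.694, low at 28.3 TPM) and Mrps36 (0.650). In the A3B pancreases they were Mrps14 (0.780, low at 28.2 TPM), Mrps18c (0.71, low at 53.0 TPM) and Mrps24 (0.675, low at 33.3 TPM), all in mouse 44, and Mrps18b (0.771, high at 56.9 TPM) in mouse 49.

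The A3B effect differed between pancreas and liver of set 2 by edgeR's interaction test for 13 members, given as the log2 difference on the TMM scale. Of these 12 were more negative and 1 more positive, beside 5.02% and 6.87% of all genes. With the mouse block and the length correction together, 1 more negative call was left. The difference was positive for Mrpl45 (1.29) and negative for Mrpl24 (-1.67), Mrps24 (-2.58), Mrpl50 (-2.16), Mrpl30 (-1.65), Mrpl15 (-1.33), Mrps28 (-1.67), Mrps21 (-2.17), Mrpl53 (-2.53), Mrps16 (-1.46), Mrpl57 (-2.15), Mrpl42 (-1.62) and Mrpl14 (-1.78). Between lung and liver of set 1 the A3B effect differed by limma's interaction test for Mrpl47 (-1.17), Mrps36 (-1.21) and Mrpl18 (-0.82). These 3 of 78 members are a smaller share than the 8.81% of all genes called more negative there. None of the 3 was called more negative with quantile normalization or with the length correction.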

How the results depend on the processing

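Of the alternative values of the members' counts and medians, 195 were within tolerance (a factor of 1.5 for counts, a jackknife spread over the samples for medians, which is wide in pancreas), 57 moved further and 3 turned. In the set 2 livers DESeq2 called 1 higher and 1 lower, total-count scaling 2 higher (median 0.47), limma on TPM 1 higher (median 0.35), the length correction 2 lower, and leaving out 1 sample 0 to 2 lower. In pancreas total-count scaling gave 61 higher and 0 lower (median 1.37) and limma on TPM 66 and 0 (median 1.27), so the direction turned. Over all genes these 2 fits called 70.4% and 83.9% higher and 1.1% and 1.12% lower, with medians of 2.29 and 1.75. Mrpl50 turned to 0.42 and 0.40 and Mrpl12 to 0.73 and 0.75 under these. Leaving out 1 sample gave 1 to 2 higher and 25 to 46 lower (medians -1.11 to -0.53). In the set 1 livers 0 were lower without a filter, 2 with quantile normalization, 3 with the length correction and 0 to 2 with 1 sample left out. In lung the length correction gave 1 higher and 23 lower (median -0.21), and leaving out 1 sample 39 to 61 lower. For pancreas against liver, DESeq2 called 24 more negative (7.13% of all genes). Total-count scaling called 34 more positive and 0 more negative (median 1.07), beside 39.4% and 1.12% of all genes (median 1.59). Under it Mrpl24 turned to 0.061, Mrpl30 to 0.11 and Mrpl15 to 0.29. Leaving out 1 sample gave 0 to 2 more positive and 0 to 19 more negative. With the mouse as a replicate block 1 was more positive and 8 more negative (median -0.65), the length correction without the block left 0 more positive, and both together left 0 more positive and 1 more negative. For lung against liver, the mouse as a block gave 4 more negative (median -0.40), beside 15.98% of all genes (median -0.38). Quantile normalization left 0 more negative there, and the length correction 1 more positive and 0 more negative (median -0.072). Leaving out 1 sample gave 0 to 1 more positive and 0 to 13 more negative, with 13 without A3B liver 70. The turns under total-count scaling follow from the library factors, and the cause of the other shifts was not tested. The simulated interaction design recovered 92.5% of changed genes at a dispersion of 0.05 and 0% at 0.25, so a member not called there may still differ.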
